A study of Mus musculus with 9 samples.

Results

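The genes described here are 41 genes of the endoplasmic reticulum (ER) stress response and the integrated stress response, followed in 9 RNA-seq libraries of a mouse pancreatic cancer line with and without an edited Zdhhc20 gene. They were chosen by symbol and matched to the Ensembl identifiers of the count table, as 41 of 54838 identifiers, and all 41 were among the 13153 genes with enough counts to be tested. They fall into 14 ER chaperones and folding enzymes, 4 genes of ER-associated degradation, 5 stress sensors and transcription factors, and 18 targets of the transcription factor ATF4. The targets comprise 8 regulators and 10 genes of amino acid supply. The line, PDA530 Met, came from a liver metastasis of pancreatic ductal adenocarcinoma in a male KPC mouse, on a mixed 129/SvJae and C57Bl/6 background, and 1 label calls it PDA50 Met. Zdhhc20 encodes a palmitoyltransferase, which adds palmitate to proteins. The knockout group is 1 single-cell clone made with CRISPR/Cas9. The control group is 1 single-cell clone that went through nucleofection with these guide RNAs too, remained unedited and still expresses Zdhhc20. The parental group is the uncloned line. Each group has 3 libraries from untreated cells in normal growth medium, called biological replicates by the design text. Clone and genotype therefore cannot be told apart, since the replicates are samples of a clone and not separate clones.

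Cells sense misfolded protein in the ER with 3 membrane sensors. IRE1 (Ern1) splices Xbp1 mRNA, ATF6 is cut to release a transcription factor, and PERK (Eif2ak3) phosphorylates the translation factor eIF2. XBP1 and ATF6 are known to raise chaperone and degradation genes. Phosphorylated eIF2 slows general translation and favours translation of Atf4 mRNA, and other eIF2 kinases reach the same point on amino acid shortage, haem shortage or viral RNA, which is why this branch is named the integrated stress response. ATF4 is known to raise amino acid synthesis and transport genes, tRNA synthetases and further regulators. ATF4 protein, eIF2 phosphorylation and Xbp1 splicing are not measured by counts per gene.

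Total counts per library ranged from 16525869 to 23192701. In the knockout clone the targeted gene Zdhhc20 was at 37.5, 33.9 and 42.5 CPM (counts scaled to a common library size), below all libraries of the control clone (123, 85.8 and 120.2 CPM) and of the parental cells (75.3, 81.2 and 90.7 CPM). The ductal keratins Krt8 and Krt18 and the adhesion gene Cdh1 were abundant, while Epcam and Cldn4, markers of the same epithelium, were near 0, and the summed level of 8 such markers ran from 4319 to 4446 CPM for the knockout clone, from 7008 to 9379 CPM for the control clone and from 6696 to 8165 CPM for the parental cells. Summed markers of leukocytes, endothelium, fibroblasts, acinar cells and hepatocytes stayed at or below 7.66 CPM in each library. The libraries of the control clone differed from each other more than those of the other groups. For genes averaging 5 CPM or more, the SD of log2 CPM had a median of 0.203 in the control clone, beside 0.0753 for the knockout clone and 0.0839 for the parental cells.

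Between the knockout and the control clone, the ATF4 targets had a higher median than the chaperones, a difference that was not tested. Of 41 genes, 17 passed the test, 10 higher and 7 lower in the knockout clone, in a comparison where 42.9% of all tested genes were called, 18.7% higher and 24.2% lower. A call means a Benjamini-Hochberg adjusted p under 0.05 from the edgeR quasi-likelihood test over all 13153 genes, and every adjusted p for a gene is from that test. Of the ATF4 targets, 7 of 18 rose and 3 fell, with a median log2 fold change of 0.51. Among the chaperones 2 of 14 rose and 3 fell, with a median of 0.02, beside a median of -0.02 over all tested genes. The share of the 41 genes called was close to that of all genes. With the further requirement of a log2 fold change beyond 1 in size the calls were Herpud1, Atf3 and Ppp1r15a, 3 of 41, beside 14.0% of all genes. The same threshold gave 1 member, Herpud1, versus the parental cells (10.6% of all genes) and 0 members in the control clone versus the parental cells (6.49%). No test was made of either list as a whole, because its members were chosen with results known.

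Against the parental cells, 7 of 41 genes were called in the knockout clone, 5 higher and 2 lower, beside 31.4% of all genes (13.1% higher, 18.3% lower). This count and its split depended on which libraries entered the fit. The main fit shares 1 estimate of the spread per gene, so the spread of the control clone enters this comparison too. With just the 6 libraries of the groups being compared, 18 members were called versus the parental cells, 6 higher and 12 lower, beside 53.5% of all genes (3316 genes higher, 3524 lower). The like fit versus the control clone called 11, 7 higher and 4 lower, beside 34.1% of all genes (1986 higher, 2362 lower). The median was -0.01 for the ATF4 targets, -0.09 for the chaperones and -0.01 over all tested genes. The control clone versus the parental cells gave 6 calls of 41, 1 higher and 5 lower, beside 21.4% of all genes (10.4% higher, 11.0% lower). Its median was -0.39 for the ATF4 targets, 0.01 for the chaperones and 0.01 over all genes. These comparisons share libraries, so their values are set side by side only.

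**Figure D1:**
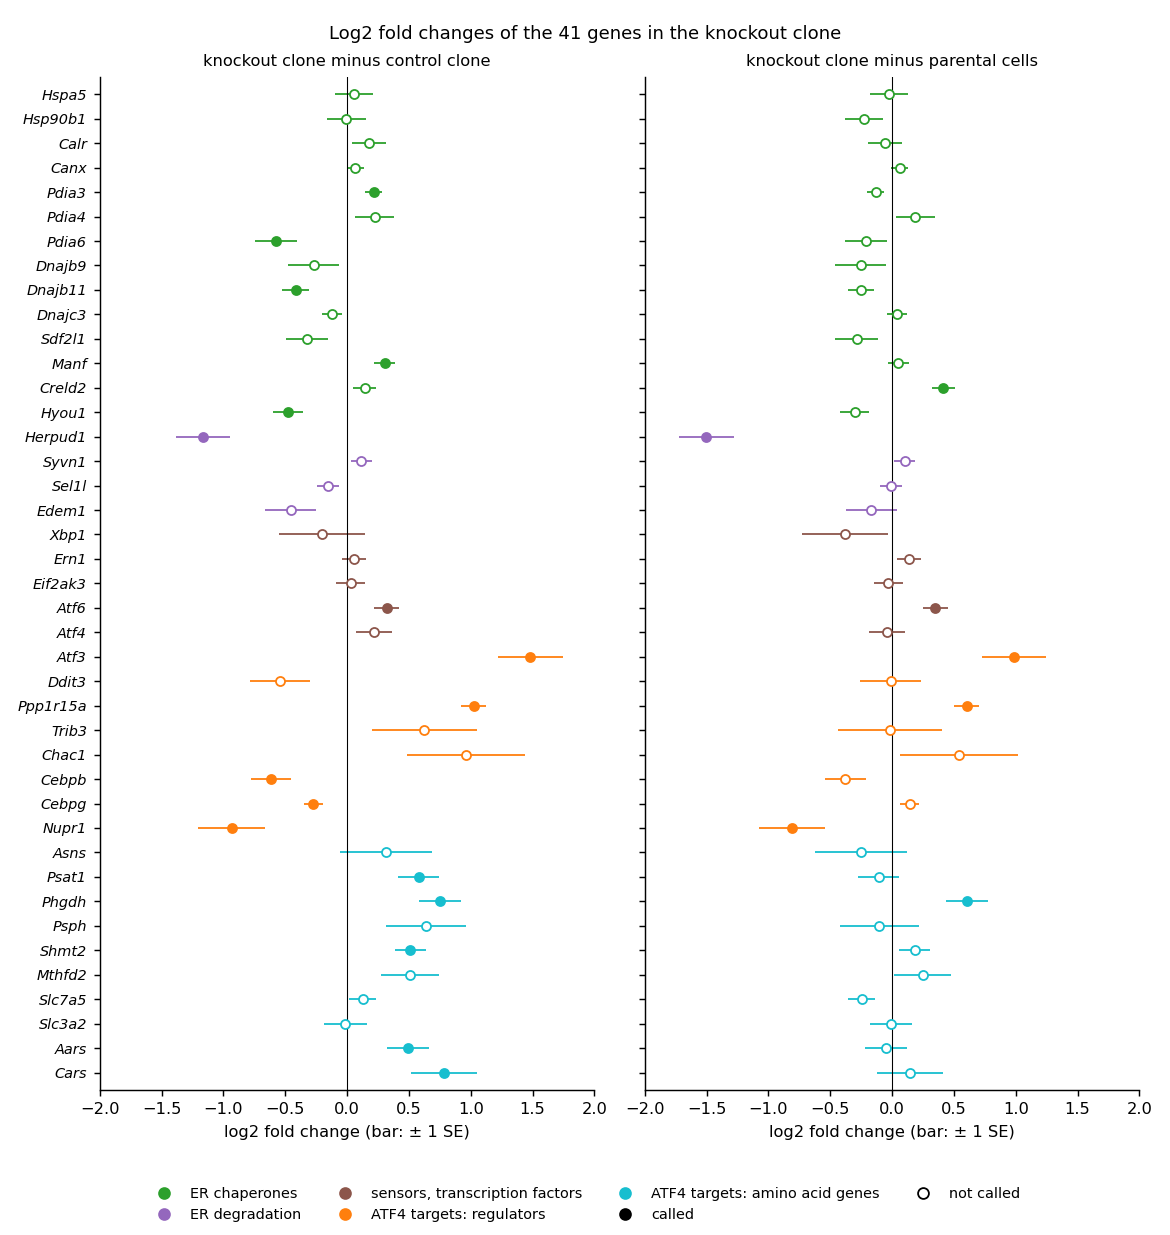
Log2 fold changes of the 41 genes in the knockout clone versus the control clone (left) and versus the parental cells (right). Each point is 1 gene with a bar of ± 1 SE, coloured by list, and filled where the gene was called (17 on the left, 7 on the right). The chaperones lie between -0.58 and 0.30 on the left, and the ATF4 targets between -0.93 and 1.48.

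Chaperones and folding enzymes spanned a wide range of levels. Compared per kilobase of exon model, Calr, which holds calcium and folds glycoproteins, was highest in the list with 333 CPM per kilobase in the knockout clone, 294 in the control clone and 346 in the parental cells. Dnajb9, a co-chaperone of the ER Hsp70, was lowest with 7.63, 9.20 and 9.10 CPM per kilobase in the same order. Pdia3, a disulfide isomerase of glycoprotein folding, was at 243, 209.5 and 267 CPM per kilobase. Hspa5, which encodes BiP, the ER Hsp70 that also holds the sensors inactive, was at 169, 163 and 172 CPM per kilobase.

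Hspa5 (chr2:34771970-34777547, plus strand, GRCm38) was at 804, 589 and 751 CPM in the knockout clone, at 578, 634 and 849.6 CPM in the control clone and at 717, 773 and 689.7 CPM in the parental cells. The 3 groups overlapped, and the lowest and the highest library were both of the control clone. Its log2 fold change was 0.06 (adjusted p 0.791, SE 0.15) versus the control clone and -0.02 (adjusted p 0.922, SE 0.15) versus the parental cells. Of the other large chaperones, Hsp90b1 (the ER Hsp90), Calr and Canx (a membrane-bound glycoprotein chaperone) were called in none of the 3 comparisons, with log2 fold changes of -0.23 to 0.18. Dnajb9, Dnajc3, Sdf2l1 and Pdia4 were not called in any comparison either. Pdia4 is a disulfide isomerase, and Dnajc3 and Sdf2l1 act with BiP. Without control replicate 3, Calr was called at 0.36 (adjusted p 0.00694) and Pdia4 at 0.42 (adjusted p 0.0208) versus the control clone, and without control replicate 2 Dnajb9 was called at -0.47 (adjusted p 0.0242). With another library left out these values shrank: Calr was at 0.082 (adjusted p 0.683) without control replicate 1, Pdia4 at 0.089 (adjusted p 0.609) without control replicate 2, and Dnajb9 at 0.0070 (adjusted p 0.974) without control replicate 3.

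The chaperone calls were 5 in number versus the control clone. Pdia3 rose by 0.22 on the log2 scale (adjusted p 0.0306, SE 0.07). Manf, a secreted ER stress protein, rose by 0.30 (adjusted p 0.0178, SE 0.09). The disulfide isomerase Pdia6 had a log2 fold change of -0.58 (adjusted p 0.022, SE 0.17), the BiP co-chaperone Dnajb11 of -0.42 (adjusted p 0.0122, SE 0.11), and the large Hsp70 relative Hyou1 of -0.48 (adjusted p 0.0101, SE 0.12). These members changed by less than 1 on the log2 scale and in both directions. The calls of Dnajb11 and Hyou1 were kept with any 1 library left out, and those of the other members were each lost without some library: Pdia3 without knockout replicate 1 (adjusted p 0.0968), Pdia6 without knockout replicate 2 (0.0916) and Manf without control replicate 1 (adjusted p 0.06), the highest value for each. Tested genes on the same chromosome moved with some of them. The median log2 fold change of the other genes was -0.53 on chromosome 9, which holds Hyou1 and Manf, -0.35 on chromosome 16, which holds Dnajb11, and -0.25 on chromosome 12, which holds Pdia6. Minus that median, Hyou1 was at 0.049, Manf at 0.83, Dnajb11 at -0.07 and Pdia6 at -0.33. The part of chromosome-wide differences between the clones in these calls was not tested.

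Against the parental cells Creld2, an ER stress gene with a role in folding, was the single chaperone called with all 9 libraries in the fit. It rose by 0.41 (adjusted p 0.00907, SE 0.09). The call was kept with any 1 library left out. Its values were 55.1, 48.8 and 52.3 CPM in the knockout clone, with 43.9, 50.6 and 47.1 CPM in the control clone and 39.6, 42.2 and 35.6 CPM in the parental cells. The parental libraries lay below all 6 others. Other chaperones were called lower than in the parental cells when a control library, which is in neither group, left the fit: Dnajb11 at -0.25 (adjusted p 0.00825) and Sdf2l1 at -0.29 (adjusted p 0.0336) without control replicate 3, and Hyou1 at -0.30 (adjusted p 0.0158) without control replicate 2. With just the 6 libraries of these groups, 7 of 14 chaperones were called lower and 1 higher, beside 53.5% of all genes called (3316 higher, 3524 lower). In the control clone versus the parental cells Pdia3 was the chaperone called, at -0.35 (adjusted p 0.00773, SE 0.07).

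The ER stress response element (ERSE), which ATF6 and XBP1 are known to use together with NF-Y, is shown for 5 chaperones. Most of the members that held it were in the chaperone list. Promoter windows from 250 bases before to 50 after the start site were taken from RefSeq (GRCm38.p6), which held 36 of the 41 genes, and searched on both strands for CCAAT and CCACG separated by 9 bases. It was present in 7 of 12 chaperones with a window (58.3%), in Syvn1, in 0 of 16 ATF4 targets, and in 0.119% of all 32851 windows of the table. Capitals mark the letters of the motif, read in the direction of the gene, so a match on the other strand appears as CGTGG before ATTGG. The coordinates are those of the motif, and 10 bases are shown on either side. Start sites are those of RefSeq, while gene spans are those of GENCODE, so a motif can lie inside the span given, as for Hspa5. Hsp90b1 held 2 matches, of which the one nearer the start site is shown; the other is at chr10:86705638-86705656.

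Hspa5, chr2:34772025-34772043, plus strand, 47 bases before the start site: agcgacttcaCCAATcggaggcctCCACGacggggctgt

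Hsp90b1, chr10:86705533-86705551, minus strand, 89 bases before the start site: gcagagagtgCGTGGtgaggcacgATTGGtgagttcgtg

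Calr, chr8:84847075-84847093, minus strand, 144 bases before the start site: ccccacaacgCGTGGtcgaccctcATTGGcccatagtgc

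Canx, chr11:50325800-50325818, minus strand, 127 bases before the start site: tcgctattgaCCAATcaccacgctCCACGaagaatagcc

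Pdia6, chr12:17266491-17266509, plus strand, 80 bases before the start site: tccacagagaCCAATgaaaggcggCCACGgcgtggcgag

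The other holders of this motif were Dnajc3, Creld2 and Syvn1. The log2 fold changes of the 8 genes with the motif ran from -0.58 to 0.18 versus the control clone, with 1 of them called, Pdia6, beside 42.9% of all tested genes. They ran from -0.23 to 0.41 versus the parental cells, with 1 called, Creld2, beside 31.4% of all genes. A match describes letters in a window and is no proof of binding. The related element TGACGTGG, bound by XBP1 and ATF6 in other settings, was found in 0 of 36 genes. It was in 0.676% of all windows and in 0.714% of all genes with a window.

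Herpud1 was the gene of ER-associated degradation that changed. It encodes a membrane protein of the complex that moves misfolded proteins out of the ER for destruction. Herpud1 (chr8:94386438-94395377, plus strand, GRCm38) was at 42.3, 43.7 and 43.7 CPM in the knockout clone, at 99.6, 63.2 and 127 CPM in the control clone and at 106, 118 and 143 CPM in the parental cells. All knockout libraries lay below the other 6, and the control clone overlapped the parental cells. Its log2 fold change was -1.16 (adjusted p 0.00238, SE 0.22) versus the control clone and -1.50 (adjusted p 0.000974, SE 0.22) versus the parental cells, and both calls were kept with any 1 library left out. The control clone differed from the parental cells by -0.34 (adjusted p 0.288, SE 0.21), and was called lower, at -0.58 (adjusted p 0.0377), without control replicate 3. Syvn1, the ubiquitin ligase HRD1, its partner Sel1l, and Edem1, a lectin that delivers glycoproteins to them, were called in none of the 3 comparisons. Their log2 fold changes in the knockout clone were 0.11, -0.16 and -0.46 versus the control clone and 0.10, -0.01 and -0.17 versus the parental cells. Edem1 was at 85.9, 77.9 and 151 CPM in the control clone, and without control replicate 2, its lowest library, it was called lower in the knockout clone (-0.63, adjusted p 0.0153), as was Sel1l (-0.22, adjusted p 0.046). Edem1 was at -0.098 (adjusted p 0.276) without control replicate 3, its highest library.

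The Herpud1 promoter is printed because Herpud1 had the lowest fold change of the 41 genes in both knockout comparisons and carries elements of both arms. The 250 bases before its start site, chr8:94386179-94386428 on the plus strand, hold the C/EBP-ATF response element (CARE) that ATF4 is known to bind, TGATGNAA on the other strand, and the element ERSE-II, ATTGG and CCACG separated by 1 base. ERSE-II was added to the search after this window had been read. Both are in capitals.

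Herpud1: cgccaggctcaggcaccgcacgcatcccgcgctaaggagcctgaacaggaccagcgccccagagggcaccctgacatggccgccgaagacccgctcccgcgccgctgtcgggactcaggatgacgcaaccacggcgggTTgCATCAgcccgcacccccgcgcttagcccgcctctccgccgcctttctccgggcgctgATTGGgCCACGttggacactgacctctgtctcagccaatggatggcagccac

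ERSE-II was found in 2 of 36 genes, Dnajb11 and Herpud1, in 0.0365% of all windows and in 0.0444% of all genes with a window. It shares the letters CCACG with ERSE. Both genes were called lower versus the control clone, beside 24.2% of all tested genes. Their calls were known when the motif was added. Minus the median of its chromosome, Dnajb11 was at -0.07 in that comparison. Versus the parental cells Herpud1 was called lower, beside 18.3% of all genes, and Dnajb11 was not called (-0.25, adjusted p 0.106).

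Of the sensors and transcription factors, Atf6 was called. It rose by 0.32 (adjusted p 0.0289, SE 0.10) versus the control clone and by 0.35 (adjusted p 0.0269, SE 0.10) versus the parental cells. Its values were 123, 110.0 and 117 CPM in the knockout clone, with 83.8, 107 and 89.9 CPM in the control clone and 96.4, 85.6 and 93.1 CPM in the parental cells, so the knockout libraries lay above the other 6 by a small margin. The first call was lost in 4 of 9 fits that left out 1 library, with the highest adjusted p, 0.0991, without control replicate 1, and the second in 4 of 9, with 0.0976 without parental replicate 2. Ern1 and Eif2ak3 had log2 fold changes of 0.06 and 0.03 versus the control clone and 0.13 and -0.03 versus the parental cells, and neither was called.

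Xbp1, the target of IRE1, was at 35.5, 29.5 and 30.2 CPM in the knockout clone, at 30.3, 18.0 and 61.3 CPM in the control clone and at 35.9, 43.7 and 44.2 CPM in the parental cells. The control clone spanned all other libraries. The log2 fold change was -0.21 (adjusted p 0.662, SE 0.35) versus the control clone and -0.38 (adjusted p 0.439, SE 0.35) versus the parental cells. The first turned to 0.38 (adjusted p 0.143) without control replicate 3 and was -0.52 (adjusted p 0.092) without control replicate 2. The control clone differed from the parental cells in Xbp1 by -0.17 (adjusted p 0.756, SE 0.35), and was called lower, at -0.76 (adjusted p 0.0195), without control replicate 3. Atf4 mRNA (chr15:80255184-80257541, plus strand) was at 351, 296 and 342 CPM in the knockout clone, at 215, 304 and 333 CPM in the control clone and at 329.9, 329.5 and 359.7 CPM in the parental cells. Control replicate 1 was the lowest library and the groups otherwise overlapped. Atf4 was called in none of the 3 comparisons, with log2 fold changes of 0.22 (adjusted p 0.26, SE 0.15), -0.04 (adjusted p 0.853, SE 0.15) and, for the control clone versus the parental cells, -0.26 (adjusted p 0.24, SE 0.15). The Atf4 value versus the control clone ran from 0.050 without control replicate 1 to 0.35 without control replicate 3, and the control clone versus the parental cells from -0.39 without control replicate 3 to -0.09 without control replicate 1, with none of these called.

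Among the 8 regulators downstream of ATF4, 2 rose and 3 fell versus the control clone, with a median of 0.18, beside 42.9% of all tested genes called. Versus the parental cells 2 rose and 1 fell, with a median of 0.07, beside 31.4% of all genes. Atf3 and Ppp1r15a were the members that rose. Atf3, a transcription factor induced by many stresses, was at 14.3, 15.2 and 14.4 CPM in the knockout clone, at 4.28, 3.57 and 7.82 CPM in the control clone and at 7.95, 5.72 and 8.41 CPM in the parental cells. The knockout libraries lay above all others. Its log2 fold change was 1.48 (adjusted p 0.00185, SE 0.27) versus the control clone, kept with any 1 library left out, and 0.99 (adjusted p 0.0182, SE 0.26) versus the parental cells, lost in 4 of 9 such fits with the highest adjusted p, 0.0761, without parental replicate 2.

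Ppp1r15a encodes GADD34, which brings a phosphatase to eIF2 and so ends the response. Its levels were 42.5, 38.7 and 42.3 CPM in the knockout clone, with 19.5, 23.2 and 18.2 CPM in the control clone and 27.6, 26.5 and 27.1 CPM in the parental cells. The 3 groups did not overlap, with the knockout clone highest and the control clone lowest. The log2 fold change was 1.02 (adjusted p 7.8e-05, SE 0.10) versus the control clone and 0.60 (adjusted p 0.00196, SE 0.10) versus the parental cells, both kept with any 1 library left out. The control clone differed from the parental cells by -0.42 (adjusted p 0.0189, SE 0.10), a call lost without parental replicate 1 (adjusted p 0.0598) and in 1 other such fit.

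Nupr1, a small stress-induced chromatin protein, fell versus both. Its levels were 13.5, 9.01 and 13.4 CPM in the knockout clone, with 25.2, 13.3 and 30.1 CPM in the control clone and 20.8, 20.6 and 21.8 CPM in the parental cells. Control replicate 2 lay within the knockout range. The log2 fold change was -0.93 (adjusted p 0.0195, SE 0.27) versus the control clone and -0.81 (adjusted p 0.0455, SE 0.27) versus the parental cells, lost in 3 and in 7 of 9 fits with 1 library left out, with the highest adjusted p, 0.0802 and 0.154, both without knockout replicate 2. Cebpb and Cebpg, partners with which ATF4 pairs on DNA, had log2 fold changes of -0.62 (adjusted p 0.013, SE 0.16) and -0.27 (adjusted p 0.0172, SE 0.08) versus the control clone. The Cebpb call was lost without knockout replicate 2 (adjusted p 0.0549), and the Cebpg call without knockout replicate 1 (adjusted p 0.0764) and without knockout replicate 2. The control clone exceeded the parental cells in Cebpg by 0.42 (adjusted p 0.0055, SE 0.08).

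The remaining regulators were not called in any comparison. Ddit3, which encodes the death-associated factor CHOP, was low in each library. Its levels were 3.32, 3.89 and 2.86 CPM in the knockout clone, with 4.50, 3.51 and 6.67 CPM in the control clone and 3.56, 3.48 and 3.12 CPM in the parental cells, and its log2 fold change versus the control clone was -0.54 (adjusted p 0.0982, SE 0.24). Without control replicate 2 it was called, at -0.72 (adjusted p 0.0191), and without control replicate 3 it was at -0.26 (adjusted p 0.329). Ddit3 overlaps Mars on the opposite strand, and the strand setting of the counting is not given in the sources used here. Trib3, a pseudokinase that restrains ATF4 and CHOP, was at 12.4, 8.12 and 11.0 CPM in the knockout clone, at 4.23, 3.27 and 13.0 CPM in the control clone and at 10.5, 10.7 and 10.8 CPM in the parental cells. Chac1, which degrades glutathione, was at 17.5, 8.23 and 15.8 CPM in the knockout clone, at 4.06, 3.45 and 13.9 CPM in the control clone and at 9.39, 10.6 and 8.59 CPM in the parental cells. In both genes control replicates 1 and 2 were the lowest of the 9 libraries, and control replicate 3 lay in or above the range of the knockout clone. Their log2 fold changes versus the control clone were 0.63 (adjusted p 0.262, SE 0.43) and 0.96 (adjusted p 0.134, SE 0.48). Without control replicate 3 both were called, at 1.48 (adjusted p 0.000459) and 1.88 (adjusted p 0.00118), and without control replicate 1 they were at 0.37 (adjusted p 0.565) and 0.67 (adjusted p 0.339).

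**Figure D2:**
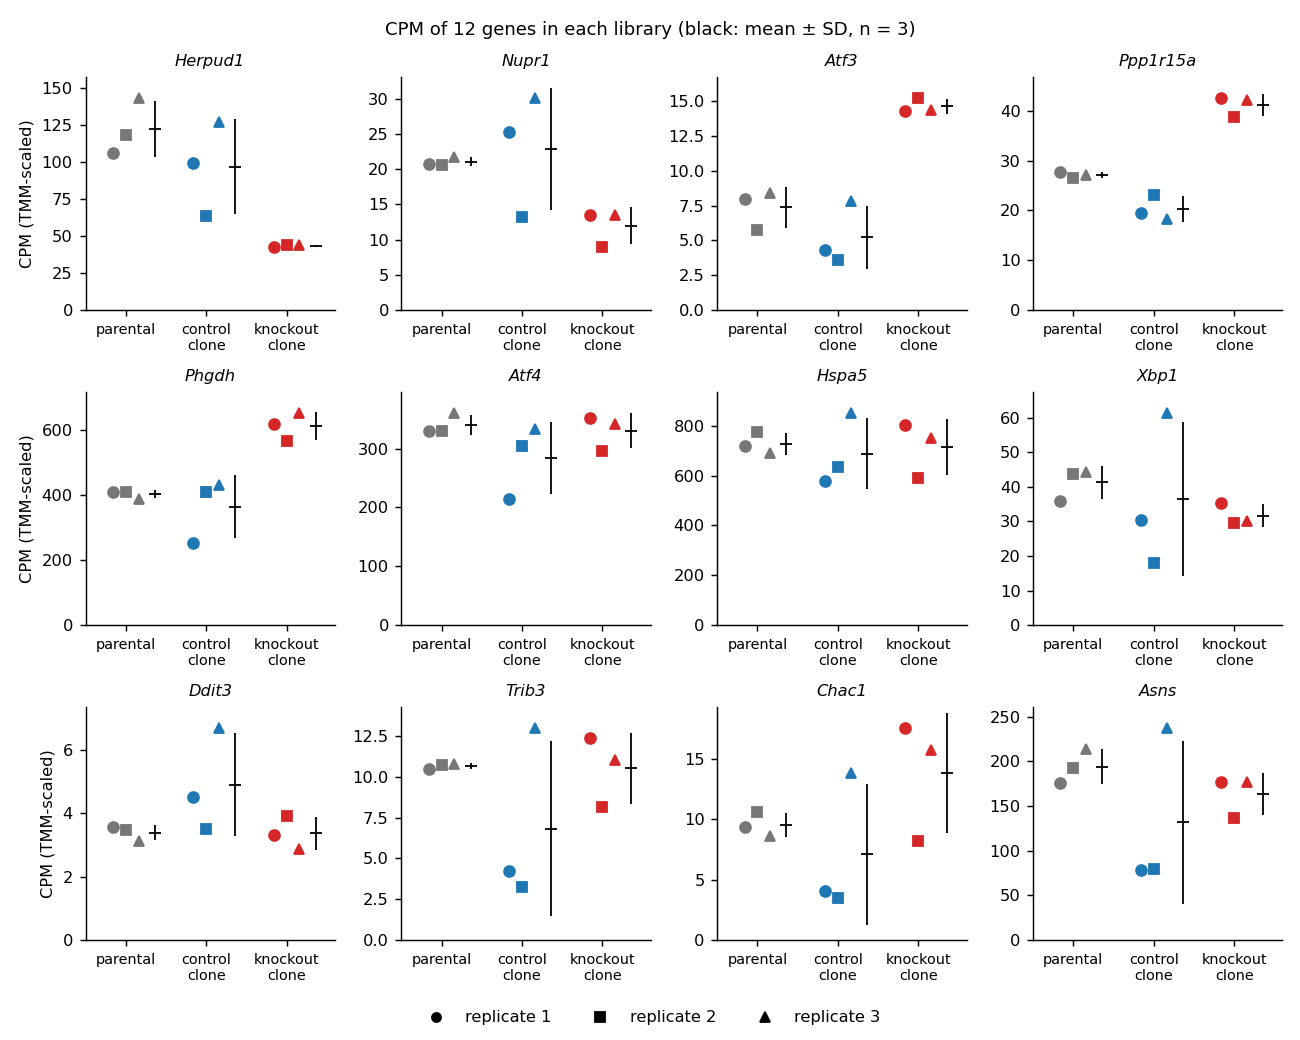
CPM after TMM scaling of 12 genes in each library, with the mean ± SD of 3 libraries beside each group and replicates 1, 2 and 3 as circles, squares and triangles. All knockout libraries of Herpud1 lie below the others and those of Atf3, Ppp1r15a and Phgdh above them. In Xbp1, Trib3, Chac1 and Asns the triangle of the control clone stands apart from its other libraries.

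The 10 amino acid genes include 5 that rose versus the control clone and 0 that fell, beside 42.9% of all tested genes called (18.7% higher, 24.2% lower), with a median log2 fold change of 0.51. Psat1 and Phgdh, enzymes of serine synthesis, rose by 0.58 (adjusted p 0.0195, SE 0.17) and 0.75 (adjusted p 0.00632, SE 0.17). Shmt2, the mitochondrial enzyme that passes carbon from serine to folate, rose by 0.51 (adjusted p 0.00961, SE 0.13). The tRNA synthetases Aars and Cars, which charge tRNAs with alanine and cysteine, rose by 0.49 (adjusted p 0.0388, SE 0.17) and 0.78 (adjusted p 0.0407, SE 0.27). The calls of Phgdh and Shmt2 were kept with any 1 library left out, that of Psat1 was lost without knockout replicate 3 (adjusted p 0.0689), and those of Aars and Cars were lost in 6 and 7 of 9 such fits, with the highest adjusted p, 0.12 and 0.117, both without control replicate 1. Psph and Mthfd2, further enzymes of serine and folate carbon, were at 0.64 (adjusted p 0.14) and 0.51 (adjusted p 0.106), and without control replicate 3 at 1.22 (adjusted p 0.000341) and 0.78 (adjusted p 0.0126). Without control replicate 1 they were at 0.40 (adjusted p 0.371) and 0.26 (adjusted p 0.239). Slc7a5 and Slc3a2, the subunits of a transporter of large neutral amino acids, were at 0.13 and -0.01 and were not called.

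Phgdh was the amino acid gene that also differed from the parental cells. Its levels were 620.1, 566 and 652 CPM in the knockout clone, with 254, 409 and 432 CPM in the control clone and 411, 409 and 388 CPM in the parental cells. The knockout libraries lay above all others. The log2 fold change versus the parental cells was 0.61 (adjusted p 0.0233, SE 0.17), lost in 5 of 9 fits with 1 library left out, with the highest adjusted p, 0.0778, without knockout replicate 3. The other 9 genes had log2 fold changes of -0.25 to 0.25 versus the parental cells. In the control clone versus the parental cells 0 of 10 rose and 3 fell, with a median of -0.46, beside 21.4% of all genes called (10.4% higher, 11.0% lower). These were Psat1 at -0.69 (adjusted p 0.0182, SE 0.17), Aars at -0.54 (adjusted p 0.0468, SE 0.17) and Slc7a5 at -0.37 (adjusted p 0.0397, SE 0.11). The Aars call was lost in 8 of 9 fits with 1 library left out, the highest adjusted p being 0.123 without control replicate 1. The Slc7a5 call was lost in 5 of them (highest adjusted p 0.0967, without parental replicate 3) and the Psat1 call without parental replicate 2 (adjusted p 0.0502).

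Asns, which makes asparagine and is a standard readout of ATF4, was at 177, 137 and 177 CPM in the knockout clone, at 78.2, 79.8 and 237 CPM in the control clone and at 176, 193 and 214 CPM in the parental cells. Control replicate 3 was the highest of all 9 libraries and control replicates 1 and 2 were the lowest. The log2 fold change was 0.31 (adjusted p 0.527, SE 0.37) versus the control clone and -0.25 (adjusted p 0.65, SE 0.37) versus the parental cells. With control replicate 3 left out the first was called at 1.05 (adjusted p 0.000243), and without control replicate 1 it was at 0.045 (adjusted p 0.937).

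CARE is shown for ATF4 targets whose values are given above. The letters TGATGNAA, on either strand, occurred in 6 of 16 ATF4 targets with a window (37.5%) and in 0 of 12 chaperones. They were in 3.97% of all windows and in 4.51% of all genes with a window. With Herpud1, 7 of 36 genes held them. The ATF4 targets among these included Atf3, Trib3, Chac1, Nupr1 and Asns. Capitals mark the motif as read in the direction of the gene, which for a match on the other strand begins with TT and ends with CATCA. For Atf3, which had the highest fold change of the 41 genes in both knockout comparisons, the 250 bases before the RefSeq start site are printed, chr1:191183334-191183583 on the minus strand.

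Atf3: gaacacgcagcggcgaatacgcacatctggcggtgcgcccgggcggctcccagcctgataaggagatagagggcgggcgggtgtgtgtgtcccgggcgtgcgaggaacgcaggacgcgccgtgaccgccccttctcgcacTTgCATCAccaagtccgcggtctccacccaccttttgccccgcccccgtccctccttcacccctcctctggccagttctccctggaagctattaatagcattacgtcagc

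Chac1, chr2:119351049-119351056, plus strand, 186 bases before the start site: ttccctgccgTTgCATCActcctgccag

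Nupr1, chr7:126625573-126625580, minus strand, 103 bases before the start site: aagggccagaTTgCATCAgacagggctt

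Asns, chr6:7693225-7693232, minus strand, 16 bases before the start site: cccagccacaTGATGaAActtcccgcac

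Against the control clone the log2 fold changes of the 7 genes with CARE ran from -1.16 for Herpud1 to 1.48 for Atf3, with 2 called higher and 2 lower, beside 42.9% of all tested genes (18.7% higher, 24.2% lower). Against the parental cells they ran from -1.50 to 0.99, with 1 called higher and 2 lower, beside 31.4% of all genes (13.1% higher, 18.3% lower).

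The ATF4 targets varied among the libraries of the control clone more than the chaperones did. The median SD of log2 CPM in the control clone was 0.439 for the 18 ATF4 targets and 0.261 for the 14 chaperones. In the parental cells the same values were 0.059 and 0.0734, and in the knockout clone 0.164 and 0.106. Control replicate 3 was the highest of its 3 libraries for 14 of 18 ATF4 targets (77.8%) and 9 of 14 chaperones (64.3%), beside 40.7% of all tested genes. Control replicate 1 was the lowest for 11 of 18 ATF4 targets, 9 of 10 amino acid genes and 2 of 8 regulators, beside 22.8% of all genes. Control replicate 2 was the lowest for 5 of 8 regulators and 0 of 10 amino acid genes, beside 39.4% of all genes. The knockout clone had a pattern of its own. Knockout replicate 2 was the lowest of its group for all 14 chaperones and for 15 of 18 ATF4 targets, beside 35.3% of all genes, with a median difference from the mean of its 2 companions of -0.18 and -0.22 on the log2 scale. No label names a batch that separates these libraries, and what they share was not tested.

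**Figure D3:**
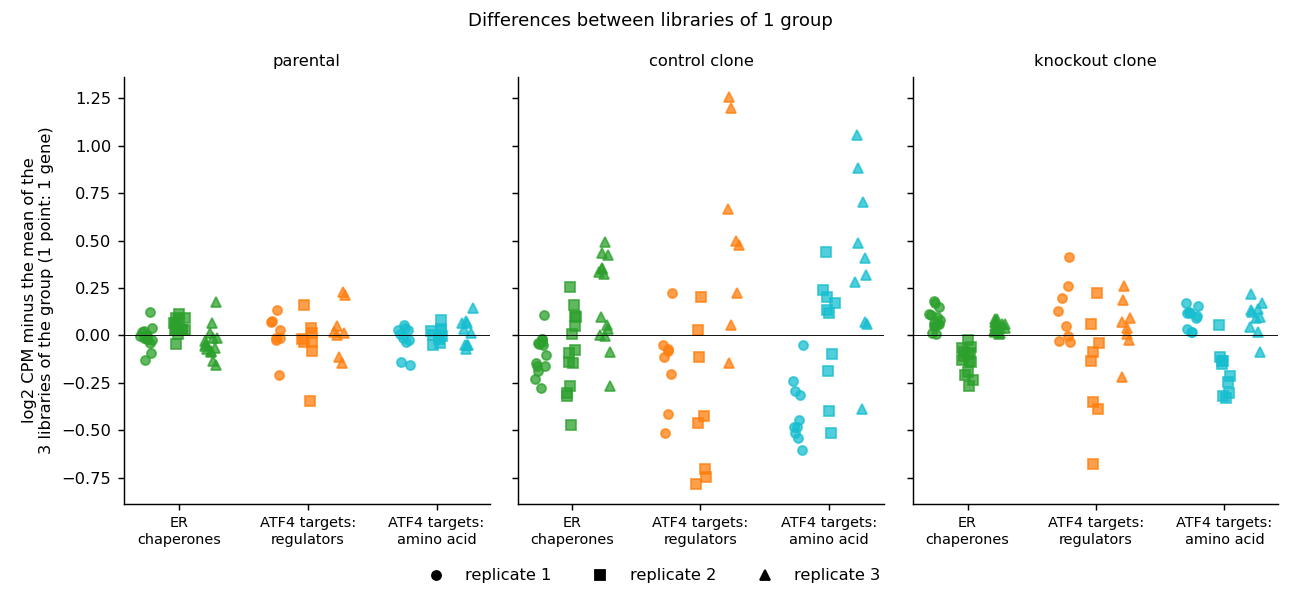
Log2 CPM of each gene in each library minus the mean of the 3 libraries of its group, for 14 chaperones, 8 ATF4 target regulators and 10 ATF4 target amino acid genes, with 1 point per gene and replicates 1, 2 and 3 as circles, squares and triangles. Control replicate 3 sits above 0 for most genes, knockout replicate 2 below 0, and the parental libraries stay close to 0.

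This spread bears on the counts of ATF4 targets. Without control replicate 3, 12 of 18 rose and 2 fell in the knockout clone versus the control clone, with a median of 0.76, and 8 of 10 amino acid genes rose, beside 45.5% of all genes called (20.6% higher). Without control replicate 1, 5 of 18 rose and 2 fell, with a median of 0.36, beside 35.0% of all genes called. The median was above 0 with any 1 library left out, from 0.36 to 0.76. The chaperone median stayed between -0.06 and 0.11 in these fits. Without control replicate 3 the control clone had 10 of 18 ATF4 targets lower and 1 higher than the parental cells, in place of 4 and 1, and 4 of 14 chaperones lower and 1 higher, in place of 1 and 0. In the same fit 30.8% of all genes were called, in place of 21.4%.

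**Figure D4:**
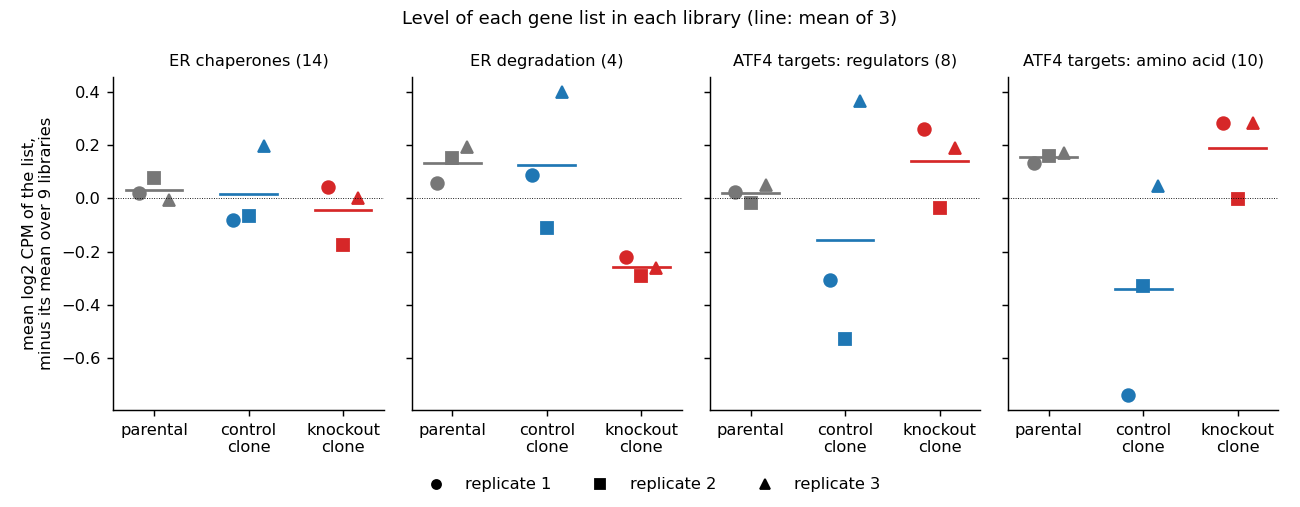
Mean log2 CPM of 4 gene lists in each library, minus the mean over all 9 libraries, with replicates 1, 2 and 3 as circles, squares and triangles and a line at the mean of each group. The chaperones run from -0.18 to 0.20 and the amino acid genes from -0.74 in control replicate 1 to 0.28 in 2 knockout libraries, while the mean of the 4 degradation genes, among which Herpud1 is the one called, is lowest in the knockout clone.

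Placed versus all 6 other libraries, the 3 knockout libraries were outside their range for 10 of 41 genes, beside 34.2% of all tested genes (15.6% above, 18.6% below). They lay above for Atf6, Atf3, Ppp1r15a, Phgdh and Shmt2 and below for Pdia6, Dnajb11, Hyou1, Herpud1 and Cebpb. Of 14 chaperones 3 were outside, each below, and of 18 ATF4 targets 5, with 4 above and 1 below. Both counts stand beside the same 34.2% of all genes. Chromosome medians versus the control clone are given above for these chaperones. The control clone was outside the range of the others for 7 genes, beside 22.3% of all genes (11.4% above, 10.9% below), above for Dnajc3 and Cebpg and below for Pdia3, Manf, Ppp1r15a, Psat1 and Shmt2. The parental cells were outside for 4 genes, beside 15.2% (8.75% above, 6.45% below), above for Pdia3 and Slc7a5 and below for Creld2 and Cebpg.

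Other genes of the same pathways were taken from fixed lists, and their counts stand beside the 42.9% of all tested genes called versus the control clone (18.7% higher, 24.2% lower) and the 31.4% called versus the parental cells (13.1% higher, 18.3% lower). Of 39 tested genes of ER folding, translocation and degradation, 5 rose and 13 fell versus the control clone, with a median of -0.17, and 2 rose and 8 fell versus the parental cells, with a median of -0.09. The lowest was Ern2, an epithelial relative of Ern1, with 2 counts over the knockout libraries, 735 over the control libraries and 163 over the parental libraries. After depth scaling that is 348 times lower than the control clone (95% interval 95.9 to 2875) and 82.8 times lower than the parental cells (22.5 to 689), by counting error alone. Yipf2, a membrane protein of the early secretory pathway, was at -1.53 (adjusted p 0.000619, SE 0.22) and -1.34 (adjusted p 0.00199, SE 0.22). Sil1, which exchanges nucleotide on BiP, was at -1.04 (adjusted p 0.000328, SE 0.14) versus the control clone. Stt3a, the catalytic subunit that attaches sugar chains during translocation, was at -0.71 (adjusted p 0.000172, SE 0.07) versus the parental cells. Chromosome medians were not taken off the values of these other genes, and the part of chromosome-wide differences in them was not tested.

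Of 35 further tested genes of the integrated stress response, 11 rose and 6 fell versus the control clone, beside 42.9% of all genes called. Versus the parental cells 4 rose and 4 fell, beside 31.4% of all genes. The medians were 0.22 and -0.16. Control replicate 3 was the highest of its group for 27 of the 35 genes (77.1%). The highest log2 fold change of the list was 1.83 versus the control clone and 0.73 versus the parental cells. The genes named next, called with the largest changes, were lower. Stc2, a secreted glycoprotein known as an ATF4 target, had 0 counts in the knockout clone, 69 in the control clone and 44 in the parental cells. Against a floor of 3 counts over the group it was at least 21.7-fold lower than in the control clone and at least 14.9-fold lower than in the parental cells. Vldlr, a lipoprotein receptor, was at -2.50 (adjusted p 0.0199, SE 0.72) and -2.69 (adjusted p 0.02, SE 0.72). Slc7a3, a transporter of basic amino acids, was at -1.87 (adjusted p 0.00125, SE 0.31) versus the control clone and 0.43 (adjusted p 0.37, SE 0.34) versus the parental cells. Jdp2, a repressor related to ATF3, was at -1.78 (adjusted p 0.00579, SE 0.37) versus the parental cells.

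The eIF2 kinases and their partners changed little in size. Of 15 genes, 4 rose and 1 fell versus the control clone, with a median of 0.22, beside 42.9% of all genes called. Versus the parental cells 4 rose and 0 fell, with a median of 0.20, beside 31.4% of all genes. Impact, an inhibitor of GCN2 activation, rose by 0.59 (adjusted p 0.0141, SE 0.16) and the RNA-sensing kinase Eif2ak2 by 0.48 (adjusted p 0.00595, SE 0.11) versus the control clone. Eif2b4, a subunit of the exchange factor of eIF2, rose by 0.39 (adjusted p 0.00974, SE 0.10). Against the parental cells the subunits Eif2b2 and Eif2b3 rose by 0.49 (adjusted p 0.0235, SE 0.14) and 0.47 (adjusted p 0.0405, SE 0.15), and the GCN2 activator Gcn1l1 by 0.35 (adjusted p 0.0424, SE 0.11).

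Of 8 cytosolic tRNA synthetases outside the ATF4 lists, 5 rose and 0 fell versus the control clone, beside 42.9% of all genes called. Versus the parental cells 1 rose, beside 31.4% of all genes. The medians were 0.21 and 0.22. Vars, Kars and Rars, which charge valine, lysine and arginine tRNAs, rose by 0.44 (adjusted p 0.0283, SE 0.14), 0.43 (adjusted p 0.00338, SE 0.09) and 0.41 (adjusted p 0.0109, SE 0.10) versus the control clone, and Kars by 0.29 (adjusted p 0.0272, SE 0.09) versus the parental cells. Within the control clone these genes were lowest in control replicate 3 for 6 of 8, beside 37.2% of all tested genes. The 19 heat shock genes of the cytosol and mitochondria had 6 higher and 4 lower versus the control clone (median 0.20). They had 7 higher and 5 lower versus the parental cells (median 0.09). Of all tested genes, 42.9% and 31.4% were called in these comparisons. The small heat shock gene Hspb1 rose by 1.54 (adjusted p 0.00279, SE 0.30) and 1.12 (adjusted p 0.0173, SE 0.29), and Hsph1, a partner of Hsp70, by 0.88 (adjusted p 0.00068, SE 0.13) versus the control clone. Hspa1a was at -1.65 (adjusted p 0.0387, SE 0.56) and -1.73 (adjusted p 0.0427, SE 0.56) and Hspa1b at -1.19 (adjusted p 0.00451, SE 0.23) versus the parental cells, and since they are near-identical copies between which RSEM divides reads, their separate values are uncertain.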

How the data were processed

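The values are RSEM expected counts per gene deposited by the authors, 1 whole-number column per library, for 54838 identifiers. The submitters' processing notes name STAR 2.5.2, RSEM 1.3.0, DESeq2 1.10.1 and the build GRCm38; neither the annotation release nor the strand setting is given in the sources used here. Symbols, positions and exon lengths were taken from GENCODE M21 (GRCm38). Ddit3 has 2 identifiers there, and ENSMUSG00000025408 was used. Members that overlap other genes, such as Manf, Aars, Ppp1r15a and Pdia6, can include reads of those.

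Counts were fitted with edgeR 4.0.16 (glmQLFit, glmQLFTest; R 4.3.3) over all 9 libraries, with the group as the only term, after filterByExpr (minimum count 10, minimum total 15) and TMM scaling, with Benjamini-Hochberg adjustment over 13153 genes. Another 12102 genes with a count were removed and 29583 had none. CPM is TMM-scaled. The SE was taken as |log2 fold change| over root F. The test was checked on simulated counts with the same spread per gene in all groups, unlike these data. Of genes changed by 1.5-fold it recovered 25.4% for the knockout versus the control clone. It recovered 34.7% for the knockout clone versus the parental cells and 25.7% for the control clone versus the parental cells. P-values measure the spread between these samples, and counting intervals cover counting error only. The 9 pairs of libraries within a group each differed by more than sampling noise.

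The 41 members, their division and the other lists were chosen with earlier results of these data known. Values per library are given for members called with a log2 fold change of 1 or more in size, for Hspa5, Xbp1, Ddit3, Atf4, Atf3, Trib3, Chac1 and Asns, and for a few others (Nupr1, Phgdh, Creld2, Atf6 and the control values of Edem1) chosen after their values were seen. From each other list at most 3 called genes with the largest changes per knockout comparison are named.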

Additional observations from a re-analysis of the deposited data

How the results depend on the processing

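Scaling was varied to DESeq2 (1.42.0) size factors and to total counts, the filter to none and to 5 CPM on average, and the test to DESeq2, limma voom and glmTreat at a fold of 1.2. Further fits had a replicate block, used just the groups being compared, or left out each library in turn. A threshold of 1 on the size of the log2 fold change was added. In the knockout clone against the control clone, 17 members became 7 with glmTreat, 11 with just the groups being compared, 3 with the threshold of 1 and 10 to 22 with 1 library left out; the 5643 genes became 3560 with glmTreat and 1846 with the threshold. Against the parental cells, 7 members became 3, 18 and 1 in the same order and 3 to 9 with 1 library left out; the 4131 genes became 2330, 6840 and 1394, and 2515 to 5693. For the control clone versus parental cells, 6 members became 0, 2 and 0, and 3 to 18; the 2814 genes became 1203, 1525 and 853, and 1472 to 4102. Of these, 10 came without knockout replicate 1, 2515 without parental replicate 3, 1472 without parental replicate 1, and 22, 9, 18, 5693 and 4102 without control replicate 3. The count of 3 versus the parental cells came without parental replicate 2, knockout replicate 1 or knockout replicate 3, and that of 3 in the control clone without parental replicate 1 or 2 or control replicate 1. At an unadjusted p under 0.05, 11 members passed in the control clone versus the parental cells. With the stricter thresholds the counts fall by construction; for the others the cause was not tested.

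Minus the chromosome medians, the chaperone median against the parental cells moved from -0.09 to 0.024, and Hyou1 against the control clone turned from -0.48 to 0.049. With 1 library left out, the chaperone median of control clone versus parental cells ran from -0.22 (without control replicate 3) to 0.060. Without control replicate 3, an alternative chosen after seeing the data, parental cells lay outside the range of the others for 8 members in place of 4, beside 22.2% of all tested genes in place of 15.2%. The scalings moved 0 and 1 member calls of 123, DESeq2 2, limma voom 1, the stricter filter 2, and no filter 6 gained and 2 lost.

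The replicate numbers are not said to mark a shared day, and deviations from the group means of same-numbered libraries correlated at -0.13 to 0.21, so the block pairs only a number. With the replicate block, member calls were 16, 6 and 5 in the 3 comparisons in place of 17, 7 and 6. Atf6 missed the threshold in both knockout comparisons (adjusted p 0.0526 and 0.051) and Slc7a5 in the control clone versus the parental cells (adjusted p 0.0587). Depth is lowest for Ddit3, at 2.86 to 6.67 CPM.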
